A study of Mus musculus with 2 samples.

Results

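Dividing Sertoli cells were examined in 2 single-cell RNA libraries of whole mouse testis. The knockout library came from a C57BL/6 testis at 13 days of age with a floxed and a deleted copy of Psma7 and a Stra8-Cre knock-in (Psma7 F/-;Stra8-Cre KI/+). The control library came from a testis of the same strain and age with a floxed and an intact copy (Psma7 F/+), whose label gives no Cre. Psma7 encodes the α4 subunit of the 20S proteasome, and Stra8-Cre is a driver for germ cells, so the deletion was not aimed at Sertoli cells, although every knockout cell carried 1 deleted copy by its label. How many animals entered a library is not given. With 1 library per genotype there was no replicate check and no test, and all 95% intervals below cover counting error only.

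The cells were chosen by transcripts. Barcodes were kept if they carried 1000 or more unique molecular identifiers (UMIs, each a counted transcript), 500 or more genes and no more than 20% mitochondrial UMIs. A kept barcode was Sertoli-gated when Aard, Cst9, Cst12 and Sox9 together made up at least 10 of every 10000 UMIs and the germ cell genes Ddx4 and Dazl together had fewer than 3 UMIs. It counted as dividing when Mki67, Top2a, Ube2c and Cenpf together had at least 3 UMIs, and as non-dividing below that. This gave 656 dividing cells among 11083 Sertoli-gated cells and 22096 cells in all. The knockout library held 563 dividing and 6591 non-dividing Sertoli cells, and the control library 93 and 3836. No barcode of a dividing cell occurred in both libraries, while 7 barcodes of Sertoli-gated cells and 29 of all cells did. The knockout library held 112746953 UMIs and the control library 146528736.

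Sertoli cells are the somatic nurse cells of the seminiferous tubule. They multiply in fetal and early postnatal life under follicle-stimulating hormone, insulin-like growth factors and activin, and stop dividing around puberty as thyroid hormone acts on them and tight junctions form. A dividing cell first copies its DNA with the help of MCM helicases and new histones, then makes cyclin B, spindle motors and kinetochore proteins for mitosis. The transcripts of the division gate belong mostly to the later phase. Mki67 (chromosome 7, 135689784 to 135716361, mm10) coats mitotic chromosomes, Top2a (chromosome 11, 98992943 to 99024189) untangles DNA, Ube2c (chromosome 2, 164769898 to 164778822) helps the anaphase-promoting complex to degrade cyclins, and Cenpf (chromosome 1, 189640606 to 189688086) binds kinetochores.

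The rule itself fixed the levels of the gate genes, so these describe the cells and cannot show that the label held. Genes outside the rule were read beside them. Levels are UMIs of a gene summed over the cells of a group and scaled to the summed UMIs of those cells (CPM). Sox9, the transcription factor that specifies Sertoli cells and 1 of the gate genes, stood at 852 CPM in dividing and 1300 CPM in non-dividing knockout cells, and at 755 and 934 CPM in the control cells. Wt1, a Sertoli transcription factor outside the gate, was at 387 and 479 CPM in the knockout library and at 643 and 780 CPM in the control. Top2a was detected in 84.4% of dividing and 6.66% of non-dividing knockout cells, and in 81.7% and 9.75% of the control cells. Mki67 was detected in 68.7% and 1.24% of the knockout cells and in 35.5% and 1.72% of the control cells. Ube2c was found in 69.8% of dividing knockout and 43.0% of dividing control cells, and Cenpf in 71.9% and 71.0%. The dividing cells of the libraries thus differed most in Mki67 and Ube2c. All 4 division genes were seen together in 222 of the 563 knockout cells (39.4%), against 13 of the 93 control cells (14.0%). Of the control cells, 64 had only 3 or 4 UMIs of the division genes, against 134 of the knockout cells. Those 64 control cells were deep, with a median of 11855.5 UMIs. Among genes outside the rule, 52 other genes of G2 and mitosis summed in those cells to 1405 CPM, against 1124 CPM in control cells without a division UMI. The 134 knockout cells with 3 or 4 UMIs had 2207 CPM, against 1038 CPM without a division UMI. With 5 or more UMIs the level was 8051 CPM in 429 knockout cells and 5424 CPM in 29 control cells.

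**Figure D1:**
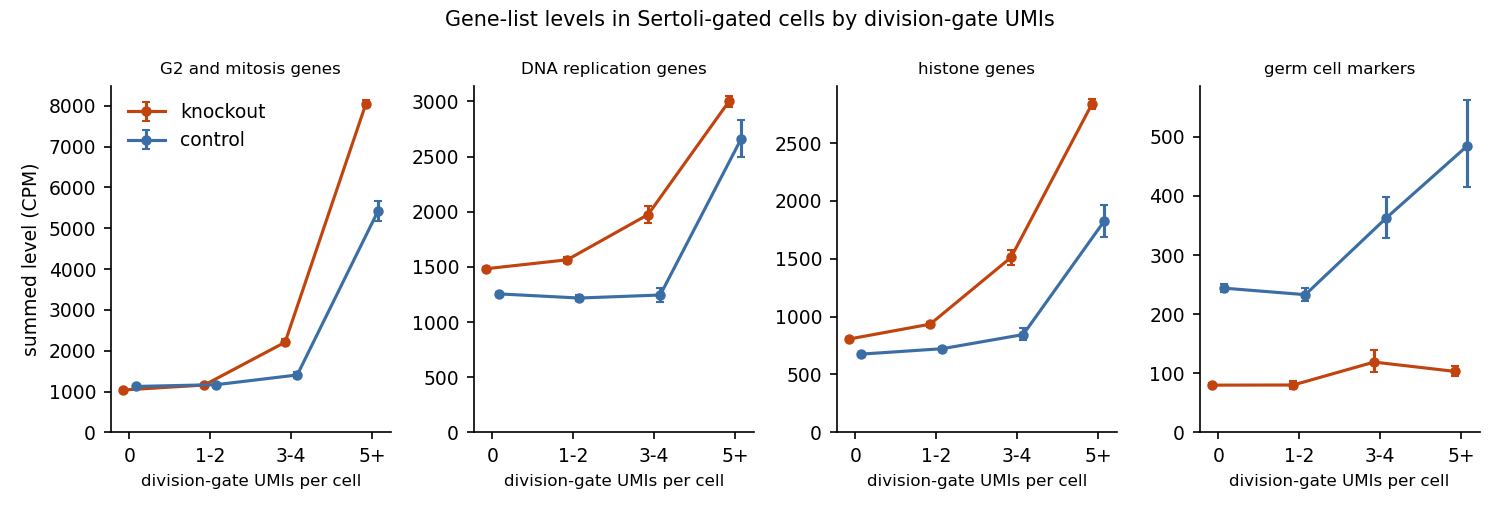
Summed level, in CPM, of 4 gene lists in Sertoli-gated cells by the UMIs of the 4 division genes per cell, with the knockout library in orange and the control in blue. Points are sums over all cells of a bin and bars are exact 95% Poisson intervals. G2 and mitosis genes reach 8051 CPM in knockout cells with 5 or more UMIs and 5424 CPM in such control cells, and germ cell markers stand at 103 and 484 CPM in those cells.

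Around the threshold, 180 knockout cells had 2 UMIs, 88 had 3 and 46 had 4. In the control library these numbers were 158, 46 and 18. Most dividing cells of the control library thus lay at the edge of the gate, and most of those of the knockout library lay well inside it. Dividing is used here as the name of the gate. Whether the 64 control cells with 3 or 4 UMIs were dividing Sertoli cells was not tested, and shares and ratios of dividing control cells carry this limit. At 20 UMIs or more there were 125 knockout and 4 control cells.

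The summed level of germ cell markers was higher in dividing than in non-dividing cells of both libraries, and more so in the control. Germ-gated cells, with at least 3 UMIs of Ddx4 and Dazl and little Sertoli signal, numbered 332 in the knockout and 3611 in the control library, and 85.2% and 92.7% of them passed the division gate. Both Ddx4 and Dazl were at 0 UMIs in 93.6% of dividing knockout Sertoli cells but in 38.7% of dividing control cells, compared with 96.3% and 75.2% of the non-dividing cells. The 15 germ cell markers summed to 106 CPM in dividing and 79.9 CPM in non-dividing knockout cells. In the control they summed to 391 CPM in dividing and 241 CPM in non-dividing cells. Among the dividing control cells they were at 305 CPM in the 47 cells under 5 division UMIs per 10000 and at 1625 CPM in the 6 cells at 20 or more. Only Esx1 was at 0 among those markers in dividing knockout cells, and none was in dividing control cells. Free RNA, read from barcodes with 10 to 100 UMIs, held 243 CPM of these markers in the knockout and 2902 CPM in the control library. Its division genes were at 299 and 629 CPM. The part of germ cell RNA and free RNA in the control's dividing cells was not tested.

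The share of Sertoli-gated cells that passed the division gate was higher in the knockout library. It was 563 of 7154 cells, or 7.87% (exact 95% Clopper-Pearson interval 7.26 to 8.52), in the knockout library and 93 of 3929, or 2.37% (1.91 to 2.89), in the control. The ratio of the shares was 3.32 (2.67 to 4.19). At 5 or more division UMIs the shares were 6.00% (5.46 to 6.57) and 0.738% (0.495 to 1.06), a ratio of 8.12 (5.58 to 12.3). At 10 or more they were 4.07% and 0.331%, from 291 and 13 cells. At 2 UMIs the shares were 10.4% (9.69 to 11.1) and 6.39% (5.64 to 7.20). With a single UMI as the threshold the order was the other way, 20.5% in the knockout against 22.8% in the control. At equal depth it was not, as 16.2% and 14.2% of cells thinned to 3000 UMIs had at least 1, a ratio of 1.14 (1.02 to 1.27). With all UMIs the ratio was thus larger at each higher threshold. It was 12.3 (7.08 to 23.4) at 10 UMIs and 17.2 (6.54 to 64.0) at 20, the last from 4 control cells.

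Depth, cell type mix and the choice of genes were varied. Median depth was 7323 UMIs in dividing and 3979 in non-dividing knockout cells, and 9735 and 5015.5 in the control. When each cell was thinned to 3000 UMIs and all gates were re-drawn on what remained, 370 of 5281 knockout cells (7.01%) and 66 of 3459 control cells (1.91%) were dividing, a ratio of 3.67 (2.82 to 4.85). The thinned germ gate let in more cells, since 7 of those 370 knockout cells and 31 of those 66 control cells had 3 or more UMIs of Ddx4 and Dazl at full depth. With the division genes alone read on thinned cells, an alternative chosen after seeing the data, 358 of 5117 knockout cells (6.996%) and 22 of 3183 control cells (0.691%) were dividing, a ratio of 10.1 (6.58 to 16.4). Among cells with no UMI of Ddx4 or Dazl the shares were 527 of 6875 cells and 36 of 2921 cells, 7.67% and 1.23%, a ratio of 6.22 (4.43 to 8.98). Among the alternatives of this paragraph, the smallest ratio, 1.63, came with 2 UMIs as the threshold. The next came with 4 other genes of mitosis, Cdk1, Birc5, Tpx2 and Nusap1, as the gate, chosen after seeing the data. That gate took 618 knockout cells (8.64%) and 204 control cells (5.19%), a ratio of 1.66 (1.42 to 1.96), and 404 and 31 of them were among the dividing cells described here. With 3 division UMIs per 10000 as the threshold the ratio was 1.95. Each of these alternatives kept the ratio above 1, but with 1 UMI as the threshold and all UMIs it was 0.901 (0.828 to 0.980).

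**Figure D2:**
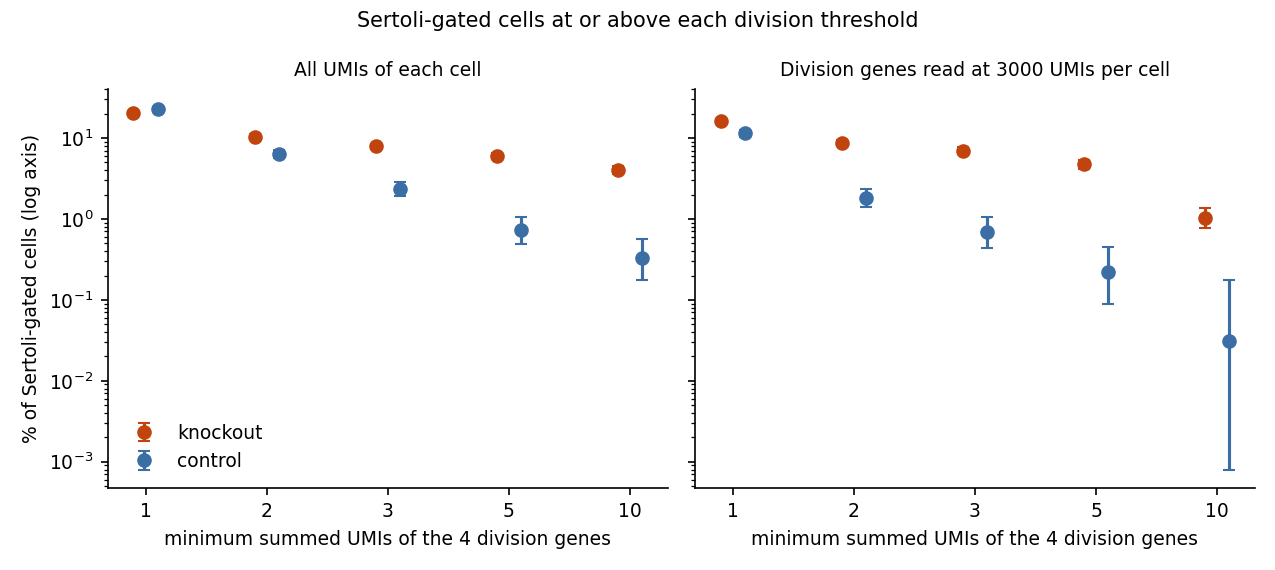
Share of Sertoli-gated cells at or above each threshold on the summed UMIs of Mki67, Top2a, Ube2c and Cenpf, with all UMIs (left) and with the division genes alone read after thinning each cell to 3000 UMIs (right), on a log axis. Points are single libraries, knockout in orange and control in blue, and bars are exact 95% Clopper-Pearson intervals. With all UMIs the shares are 20.5% and 22.8% at 1 UMI, 10.4% and 6.39% at 2 and 7.87% and 2.37% at 3, and the knockout point lies higher at each threshold on the right, where the control point at 10 UMIs is 1 cell.

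Genes outside the gate were also higher in the knockout library when the transcripts of all Sertoli-gated cells were summed with no division gate. Cyclin B1, Ccnb1, was at 16.4 CPM in the knockout and 5.17 CPM in the control library. The 52 genes of G2 and mitosis summed to 1915 CPM in the knockout and 1202 CPM in the control library, with a log2 ratio of 0.67 (0.65 to 0.69). For 46 genes of DNA replication the sums were 1690 and 1262 CPM and the log2 ratio was 0.42 (0.40 to 0.44). The 4 division genes restate the share, at 215 CPM in the knockout and 53.3 CPM in the control library, a log2 ratio of 2.01. Mki67 was at 29.98 and 4.82 CPM, Ube2c at 54.96 and 11.04 CPM, Top2a at 84.4 and 22.4 CPM, and Cenpf at 45.4 and 15.02 CPM. The alternatives that could change the 3 ratios of gene groups left them above 0. Other division thresholds or genes, the gene minimum, the scaling and the free RNA subtraction could not change these sums. The ratio of the division genes was lowest, at 1.21, with the gates re-drawn on thinned cells.

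Dividing cells of another somatic type gave a smaller difference. Stromal-gated cells, with Pdgfra, Dcn, Lum, Col1a1 and Col3a1 in place of the Sertoli genes, passed the division gate in 298 of 2904 cells (10.3%) of the knockout and 185 of 2606 (7.099%) of the control library. The ratio was 1.45 (1.20 to 1.75), and 1.16 (0.897 to 1.49) with the gates re-drawn on thinned cells, against 3.32 and 3.67 in Sertoli-gated cells. With the division genes alone read on thinned cells it was 1.29 (1.00 to 1.68), against 10.1. Dividing stromal cells had 9475 CPM of G2 and mitosis genes in the knockout and 9991 CPM in the control library.

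Genes of mitosis set the dividing Sertoli cells apart from the non-dividing ones of the same library, as the gate would make them. These ratios describe the gate and support nothing. All 52 measured G2 and mitosis genes were higher in dividing cells of both libraries, with a median log2 ratio of 3.98 in the knockout and 1.78 in the control, where the median over all measured genes was 0.01 in both. At least 2-fold higher were 50 of the 52 in the knockout library, against 4.5% of all 16367 genes, and 39 in the control, against 4.43% of 14997. In the control the median was 3.33 when dividing meant 5 or more UMIs. The highest were Kif4, a motor on chromosome arms, and Knstrn, a kinetochore protein. Kif4 stood at 79.9 CPM in dividing and 0.830 CPM in non-dividing knockout cells, and at 17.8 and 1.07 CPM in control cells, log2 ratios of 6.57 (6.07 to 7.15) and 4.06 (3.26 to 4.86). Knstrn had log2 ratios of 5.50 and 3.54. The lowest were Pttg1, the separase inhibitor securin, at 0.25 and 0.20, and Arl6ip1, a protein that shapes the endoplasmic reticulum, at 0.88 and 0.40. Ccnb1 was at 94.6 CPM in dividing and 2.90 CPM in non-dividing knockout cells, and at 19.8 and 4.32 CPM in control cells. Plk1, the kinase that drives mitotic entry, was at 42.7 and 1.58 CPM in the knockout, and in the control library at 3.82 CPM, from 6 UMIs, and 1.66 CPM.

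Many promoters of this group share sequence elements that are known from mitotic genes, the CCAAT box and the cell cycle homology region. RefSeq promoters (GRCm38.p6, 250 bases before to 50 after the start, 1 per gene) were found for 44 of the 52 genes. CCAAT, on either strand, occurred in 33 of them (75%), against 37.9% of all 27025 promoters, and TTTGAA or TTCGAA in 32 (72.7%), against 19.4%. Both were present in 29 (65.9%), against 7.70% of all promoters. DNA replication genes, with 36 promoters found, held CCAAT in 63.9% and TTTGAA or TTCGAA in 16.7%. The E2F letters TTTGGCGC or TTTGCCGC or TTTCGCGC or TTTCCCGC, on either strand, occurred in 13 of them (36.1%), against 3 G2 and mitosis promoters (6.82%) and 2.32% of all promoters. A match is a run of letters and not a shown binding site. Promoters of 3 spindle genes are given 5′ to 3′, from 180 bases before to 30 after the start, as examples that hold both elements and rank highest over both libraries among those printable here. Capitals mark CCAAT and TTTGAA, or these letters read on the other strand (ATTGG and TTCAAA). Kif4 lies at chrX:100625885-100626094 on the plus strand. Hmmr, a protein of spindle poles, lies at chr11:40733408-40733617 on the minus strand and holds CCAAT 5 times. Kif11, the motor that pushes spindle poles apart, lies at chr19:37376202-37376411 on the plus strand. In dividing and non-dividing knockout cells Hmmr was at 94.03 and 1.76 CPM and Kif11 at 160 and 4.98 CPM.
Kif4: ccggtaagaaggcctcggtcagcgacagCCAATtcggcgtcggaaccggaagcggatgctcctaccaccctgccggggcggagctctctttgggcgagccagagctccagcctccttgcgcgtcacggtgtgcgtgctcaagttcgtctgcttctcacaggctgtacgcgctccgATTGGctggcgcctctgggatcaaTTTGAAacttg
Hmmr: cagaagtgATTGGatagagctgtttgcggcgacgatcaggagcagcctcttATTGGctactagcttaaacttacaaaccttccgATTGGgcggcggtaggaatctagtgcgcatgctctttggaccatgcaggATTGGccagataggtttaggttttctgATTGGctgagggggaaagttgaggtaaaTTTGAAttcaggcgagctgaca
Kif11: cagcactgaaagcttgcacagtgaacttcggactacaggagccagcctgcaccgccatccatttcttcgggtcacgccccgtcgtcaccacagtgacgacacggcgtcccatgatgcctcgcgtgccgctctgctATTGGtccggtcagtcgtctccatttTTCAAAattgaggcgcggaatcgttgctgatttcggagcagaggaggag

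Genes of DNA replication and histones followed, at smaller ratios. Of 46 replication genes, 45 were higher in dividing knockout cells and 38 at least 2-fold, with a median log2 ratio of 1.59. In the control 42 were higher, 15 at least 2-fold, with a median of 0.82, or 1.51 at 5 or more division UMIs. Clspn, an adaptor of the replication checkpoint, was the highest over both libraries, at 49.6 CPM in dividing and 3.03 CPM in non-dividing knockout cells, and at 20.4 and 5.21 CPM in the control. Uhrf1, which keeps DNA methylation on new strands, had log2 ratios of 2.71 and 2.02. Slbp, the binding protein of histone mRNA, was the lowest at -0.10 and -0.48, and the histone chaperone Nasp stood at 0.13 and -0.01. Of 16 histone genes, 14 were at least 2-fold higher in dividing knockout cells (median 1.73), and 4 of 14 measured in the control (median 0.39). Hist1h2ap was at 110 CPM in dividing and 6.04 CPM in non-dividing knockout cells, and at 21.0 and 5.73 CPM in the control. Histone genes are near-identical copies and most of their mRNA has no poly(A) tail, so their single values are uncertain.

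Within the dividing knockout cells the gene lists did not scale alike with the gate. In 79 cells under 5 division UMIs per 10000, 95 cells at 5 to 10, 194 cells at 10 to 20 and 195 cells at 20 or more, G2 and mitosis genes summed to 2161, 4783, 8246 and 12615 CPM. Replication genes in the same cells summed to 1979, 2677, 3328 and 3197 CPM, and histone genes to 1704, 2181, 2966 and 3433 CPM. Replication genes thus levelled off in the 2 upper bins, while mitotic and histone genes went on. The bins were made from the division genes, which belong mostly to the later phase, so this order describes the gate and supports nothing. Sertoli products, such as Clu and Inha, summed to 13964, 10657, 10652 and 9218 CPM.

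**Figure D3:**
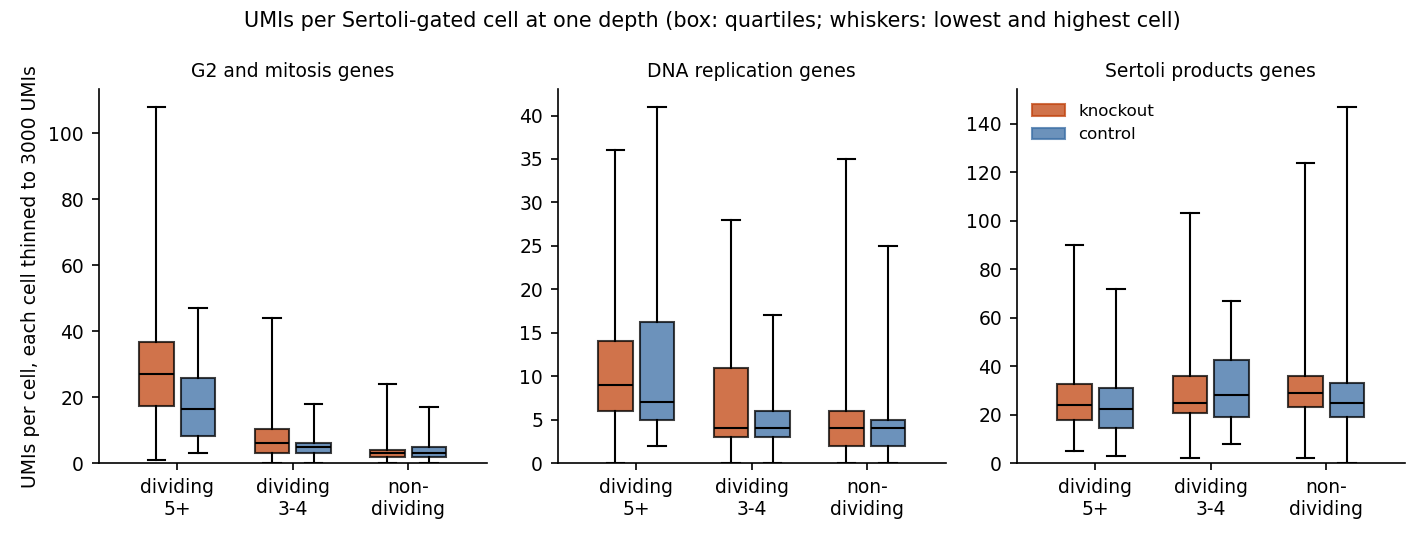
UMIs of 3 gene lists per Sertoli-gated cell after thinning each cell to 3000 UMIs, for dividing cells with 5 or more division UMIs, dividing cells with 3 or 4, and non-dividing cells, knockout in orange left of control in blue. Boxes are quartiles with the median, whiskers reach the lowest and highest cell. The median of G2 and mitosis UMIs is 27 in knockout and 16.5 in control cells at 5 or more, 6 and 5 at 3 or 4, and 3 in non-dividing cells of both libraries.

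At equal depth the same picture held per cell. Of the dividing cells, 513 in the knockout and 82 in the control library had at least 3000 UMIs. Their median was 23 UMIs of G2 and mitosis genes in the knockout (quartiles 10 and 34) and 5 in the control (3.25 and 10), against 3 in non-dividing cells of both. For replication genes the medians were 8 and 5 UMIs in dividing cells and 4 in non-dividing cells of both libraries. For Sertoli products they were 24 and 26 UMIs in dividing cells and 29 and 25 in non-dividing cells.

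Among regulators of the cell cycle's first phase, Cdkn2c, Cdkn2a and Rbl1 were at least 2-fold higher in dividing knockout cells. These were 3 of 24 G1 cyclins and inhibitors of cyclin-dependent kinases, against 4.5% of all genes. In the control none was 2-fold higher, against 4.43%, and 1 was 2-fold lower, against 5.97%. That gene, Gas1, which is known to halt growth, was at 33.4 CPM in dividing and 34.5 CPM in non-dividing knockout cells, and at 11.5 CPM, from 18 UMIs, and 25.4 CPM in the control. Cdkn2c, the inhibitor p18INK4c, was at 70.9 CPM in dividing and 8.37 CPM in non-dividing knockout cells, a log2 ratio of 3.08 (2.88 to 3.29). In the control library it was at 11.5 CPM, from 18 UMIs, and 6.58 CPM, a ratio of 0.84 (0.0149 to 1.504). Cdkn2a stood at 1.89 from 30 UMIs, and Rbl1, a relative of the retinoblastoma protein, at 1.80 in the knockout. Ccnd2, a D-type cyclin, was lower in dividing cells of both libraries, at 143 and 220 CPM in the knockout and 109 and 129 CPM in the control. In the control its log2 ratio ranged from -0.55 to 0.24 under alternatives. Ccnd1 rested on 22 UMIs in dividing knockout and 13 in dividing control cells, with ratios of 0.80 and 0.43. The inhibitors that accumulate as Sertoli cells mature had no common direction. Cdkn1b (p27) stood at 0.47 (0.26 to 0.67) in the knockout and -0.10 (-0.63 to 0.34) in the control, Cdkn1c (p57) at 0.03 and -0.54, and Cdkn1a (p21) at 0.32 and -0.40, all of these with intervals through 0 except the first.

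Receptors and hormones that set Sertoli cell number differed by less than 2-fold between dividing and non-dividing cells, except Inhba in the control. Of 27 such genes none was 2-fold higher in either library, and the medians were -0.04 in the knockout and -0.01 in the control. Inhba, a subunit of activin, was at 17.5 CPM in dividing and 19.2 CPM in non-dividing knockout cells. In the control it was at 1.27 CPM, from 2 UMIs, in dividing and 7.32 CPM in non-dividing cells, which made it the 1 member at least 2-fold lower (3.70%), where 5.97% of all genes were. Fshr, the receptor of follicle-stimulating hormone, was at 218 CPM in dividing and 297 CPM in non-dividing knockout cells (log2 ratio -0.44, -0.52 to -0.37), and at 265 and 300 CPM in the control (-0.18, -0.32 to -0.04). Inha, the α subunit of inhibin, went the other way, with 521 and 385 CPM in the knockout and 493 and 286 CPM in the control. This direction was not stable, as its log2 ratio under alternatives ranged from -0.10 to 0.53 in the knockout and from -0.95 to 0.91 in the control. The thyroid hormone receptors were at -0.11 and -0.01 for Thra, in the knockout and control library, and at -0.55 and -0.22 for Thrb. Amh, the hormone of immature Sertoli cells, was at -0.32 (-0.40 to -0.24) in the knockout and 0.21 (-0.10 to 0.49) in the control, Inhbb at -0.18 and 0.12, and the gap junction gene Gja1 at -0.34 and 0.03. Fshr, Thra and Thrb were thus lower in dividing cells of both libraries, with the control's intervals through 0 for all but Fshr. Under alternatives Fshr stayed below 0 in both libraries, and Thrb in the knockout. Thra was not stable, at -0.18 to 0.03 in the knockout and -0.45 to 0.53 in the control, nor was Thrb in the control, at -1.33 to 1.55.

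**Figure D4:**
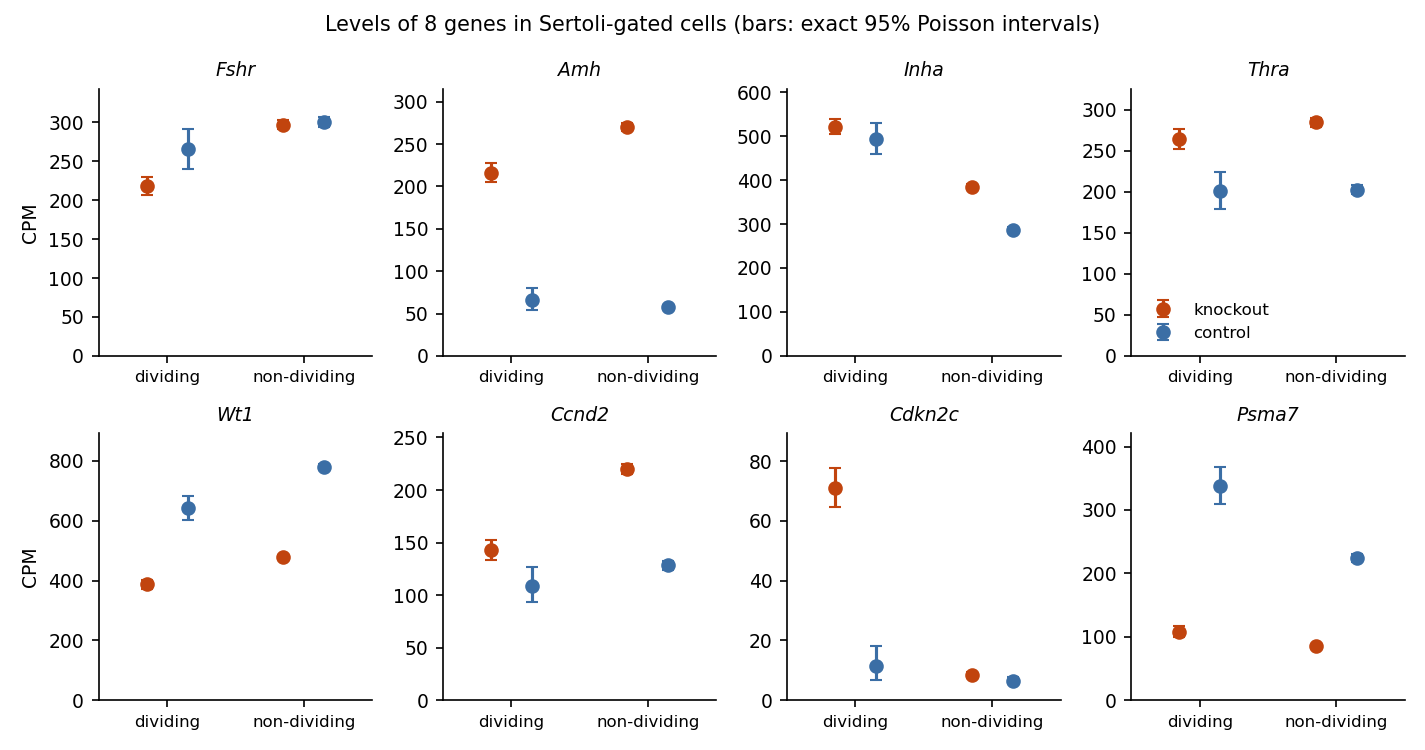
Levels in CPM of 8 genes in dividing and non-dividing Sertoli cells, knockout in orange left of control in blue. Points are sums over 1 library and bars are exact 95% Poisson intervals. Inha is higher and Fshr, Wt1 and Ccnd2 are lower in dividing cells of both libraries, Cdkn2c reaches 70.9 CPM in dividing knockout cells alone, and Psma7 is lower in the knockout library in both states. Under alternatives the direction changed for Inha in both libraries and for Ccnd2 in the control.

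Lists of Sertoli identity genes had medians near 0 between dividing and non-dividing cells, but single niche signals in the control did not. The transcription factors had medians of -0.16 in the knockout and -0.14 in the control. Of 15 measured genes 7 were lower in both libraries and 2 higher in both, against 4599 and 4914 of all 14851 genes. Sertoli products had medians of -0.01 and 0.26, though the control's median was -0.86 with the gates re-drawn on thinned cells. With the gated cells kept and their levels thinned it was 0.11. Junction genes were at -0.06 and -0.05, niche signals for germ cells at -0.11 and -0.21, and genes of glycolysis and lactate supply at -0.14 and 0.04. At least 2-fold lower were 2 junction genes in the knockout, where 2.68% of all genes were, and 1 junction, 6 niche and 2 transcription factor genes in the control, where 5.97% were. The 6 niche signals were 28.6% of the 21 measured, and 3 others (14.3%) were at least 2-fold higher in the control, where 4.43% of all genes were. No niche signal was 2-fold higher or lower in the knockout. No member of these lists was 2-fold lower in both libraries. In the control the lowest niche signal, Cxcl12, rested on 7 UMIs in 4 dividing cells. Also at least 2-fold lower there were 6 of 7 stromal, 3 of 6 peritubular myoid and 3 of 5 measured Leydig markers, and none of these markers was higher. The part of RNA of other cell types in the niche signals was not tested.

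**Figure D5:**
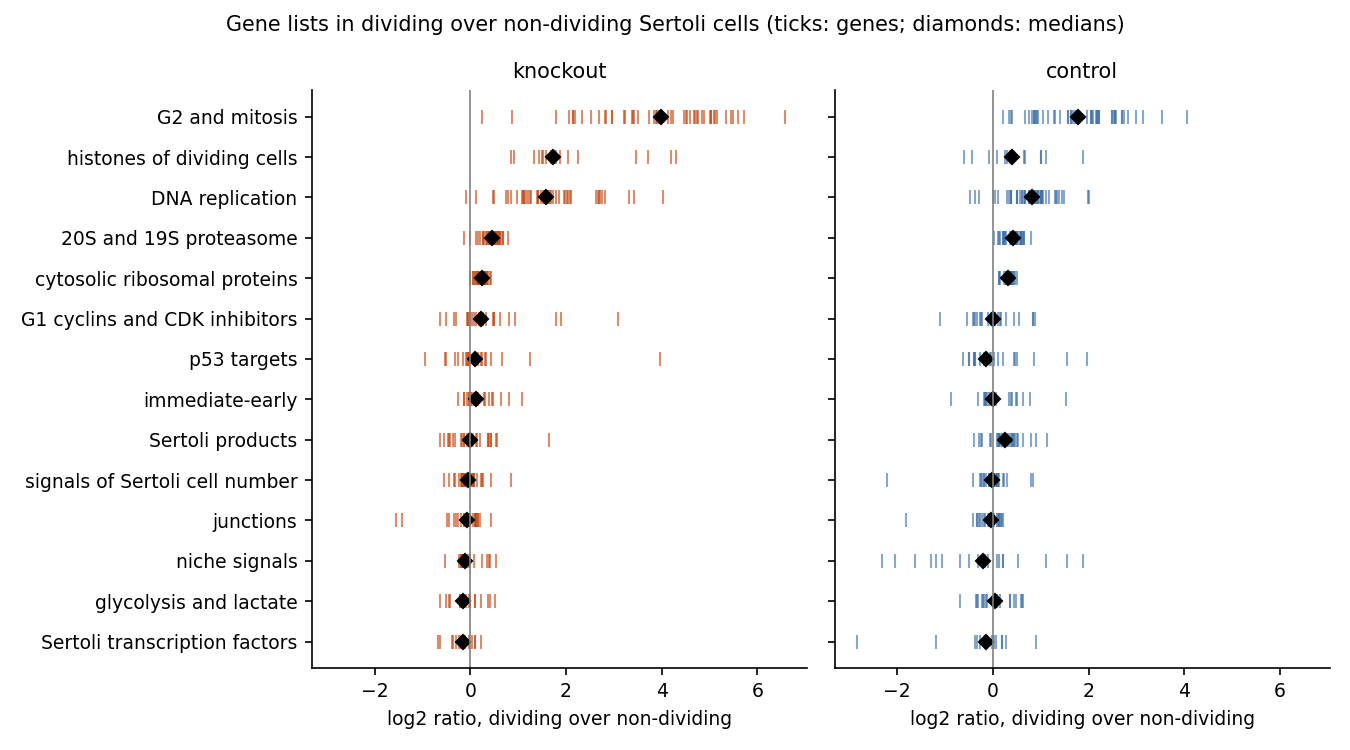
Log2 ratio of dividing over non-dividing Sertoli cells for the measured members of 14 gene lists (ticks) and their medians (diamonds), knockout left and control right. The G2 and mitosis medians are 3.98 and 1.78, proteasome genes lie in a narrow band at 0.46 and 0.41, and the medians of the 5 lowest lists lie between -0.21 and 0.04.

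Proteasome and ribosome genes were higher in dividing cells as narrow groups. Of 32 subunits of the 20S core and the 19S cap, 30 were higher in dividing cells of both libraries, against 4914 of all 14851 genes. Their medians were 0.46 in the knockout and 0.41 in the control, and none reached 2-fold. Psma4, a core subunit, was at 121 CPM in dividing and 69.9 CPM in non-dividing knockout cells, and at 122 and 70.4 CPM in the control, log2 ratios of 0.79 in both. Adrm1, the ubiquitin receptor of the cap, was lowest at -0.14 and 0.10. Of 25 cytosolic ribosomal protein genes, 24 were higher in both, against the same 4914 of 14851, with medians of 0.24 and 0.33. Of 23 measured p53 targets, 7 were higher and 9 lower in both libraries, against 4914 and 4599 of all 14851 genes. The 2 at least 2-fold higher in both were Ckap2, which is itself a mitotic spindle protein in the G2 and mitosis list, and Eda2r, a death domain receptor, at 1.25 (0.70 to 1.77) from 43 UMIs and 1.55 (0.58 to 2.33) from 14 UMIs. Among immediate-early genes Egr2 alone was 2-fold higher in both, and 35 of its 67 UMIs in dividing control cells came from 1 cell. Without cells that carried markers of other somatic types its ratios were -0.12 and -0.21.

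Beyond the lists, the genes with the largest shared ratios were again mitotic. In both libraries 202 of 14851 genes were at least 2-fold higher and 45 at least 2-fold lower. Among the 10 highest by the ratio nearer to 0 were Knl1, Pf4, Cep55, Kif15, Kif18a, Cit, Pbk, Esco2 and Ncapg2. Knl1, the kinetochore scaffold, led at 145 CPM in dividing and 3.19 CPM in non-dividing knockout cells, and at 23.6 and 2.77 CPM in the control. Cep55 and Cit, which act in the final cut between daughter cells, stood at 4.76 and 3.98 in the knockout and at 2.42 and 1.95 in the control. Pf4, a chemokine of platelets and macrophages, is not a division gene. All 52 of its UMIs in dividing control cells were in 1 cell, and 149 of 273 in the knockout were in another. The 7 macrophage markers had 94.1% of their UMIs in 1 dividing control cell and 42.8% in 1 dividing knockout cell, and 5 knockout cells and 1 control cell had 3 or more of them.

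The 10 lowest were Thnsl2, Dancr, Ackr3, Pcdh17, Glul, Epm2a, Slc18a1, Etfbkmt, Errfi1 and Phkg1. Glul, glutamine synthetase, was at 170 CPM in dividing and 286 CPM in non-dividing knockout cells, and at 112 and 183 CPM in the control, log2 ratios of -0.75 and -0.71. Errfi1, an inhibitor of the EGF receptor, was at -0.76 and -0.69, and Phkg1, a subunit of phosphorylase kinase, at -0.73 and -0.64. Ackr3, a scavenging receptor of Cxcl12, was at -1.30 and -0.74. Thnsl2 and Slc18a1 rested on 22 and 16 UMIs in dividing control cells. Of these 10 genes, Epm2a alone stayed below 0 in the control under every alternative, and the other 9 turned above 0 there with 3 division UMIs per 10000 as the threshold. In the knockout all 10 stayed below 0.

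Psma7 was lower in dividing Sertoli cells of the knockout library. Its level was 108 CPM (100 to 116) in the knockout and 338 CPM (310 to 368) in the control, from 721 and 531 UMIs, a log2 ratio of -1.65 (-1.81 to -1.48). In non-dividing cells it was at 84.8 and 224 CPM, a ratio of -1.40 (-1.46 to -1.34). The gene lies on chromosome 2 at 180036374 to 180042433 (mm10, minus strand). The counted 3' tag may lie outside the deleted part, so the value counts transcripts of the locus and not intact ones. The 32 proteasome subunits, Psma7 among them, had a median log2 ratio of 0.02 in dividing cells. Psmc2 was highest at 0.29, and Psmd7 was the lowest after Psma7, at -0.44. The median of this list was -0.41 with the levels of the gated cells thinned to 3000 UMIs, -0.69 with the division genes alone read on thinned cells and -0.80 with all gates re-drawn on them.

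Between genotypes, mitotic transcripts took a larger part of the UMIs of dividing knockout cells than of dividing control cells. All 52 G2 and mitosis genes were higher and 49 at least 2-fold, against 10.7% of all 12411 genes measured, with a median log2 ratio of 1.91. In non-dividing cells the same list had a median of -0.11, with none 2-fold higher, against 6.55% of 17161 genes, and 2 at least 2-fold lower, against 3.25%. Plk1 and the kinase Aurkb were the highest, at 42.7 and 61.3 CPM in dividing knockout cells and 3.82 and 8.92 CPM in dividing control cells. The size rested on the cells at the edge of the gate. Limited to cells with 5 or more division UMIs, 429 and 29, the median was 0.61. With the gates re-drawn on thinned cells it was 0.55, with the division genes alone read on them 0.498, and with the gated cells kept and their levels thinned 1.52.

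Replication genes had a median of 0.82 in dividing cells, with 45 of 46 higher and 17 at least 2-fold, but 0.10 at 5 or more division UMIs. It was -0.61 with the gates re-drawn on thinned cells, -0.38 with the division genes alone read on them, and 0.56 with the gated cells kept and their levels thinned. Tk1 and Mcm10, the highest at 2.06 and 1.70, rested on 12 and 9 UMIs in the control and turned below 0 wherever the division genes were read on thinned cells. Mcm2 and Hells were the lowest at -0.24 and 0.06. For replication, then, the order of the libraries changed when the cells were chosen again at 3000 UMIs but not when the levels alone were thinned. Histone genes had a median of 2.09 in dividing and 0.57 in non-dividing cells.

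Immediate-early genes were higher in the knockout library in dividing and in non-dividing cells. All 18 measured were higher in dividing cells, 8 at least 2-fold, against 10.7% of all genes, with a median of 0.97. In non-dividing cells 17 of 18 were higher, 10 at least 2-fold, against 6.55%, with a median of 1.02. Immediate-early genes are induced soon after a stimulus, before new proteins are made. Socs3, a brake on cytokine signalling, was at 121 and 26.1 CPM in dividing knockout and control cells, and at 123 and 48.5 CPM in non-dividing ones. Nr4a1, an early nuclear receptor, was at 193 and 47.8 CPM in dividing cells. Amh was at 216 and 66.3 CPM in dividing cells, a log2 ratio of 1.70 (1.42 to 2.01), and at 270 and 57.7 CPM in non-dividing cells, a ratio of 2.23 (2.15 to 2.30). Sertoli products had a median of -0.06 in dividing cells, with 2 genes at least 2-fold lower, against 2.7% of all genes. These were Rhox5, at -2.73, and Tsx, at -2.60, with -1.20 and -2.44 in non-dividing cells. Thrb and Thra stood at 0.73 and 0.39 in dividing cells and at 1.06 and 0.49 in non-dividing ones, Fshr at -0.28 and -0.02, and Inha at 0.08 and 0.43. Ccnd2 stood at 0.38 and 0.77, and Ccnd1 at -1.35 and -1.72. Niche signals were at least 2-fold higher for 7 of 19 genes (36.8%) in dividing cells, against 10.7% of all genes. In non-dividing cells they were so for 3 of 23 (13.0%), against 6.55%. Cxcl12, the highest in dividing cells, rested on 7 UMIs in the control. All 7 stromal markers were also at least 2-fold higher in dividing knockout cells, and the part of stromal RNA in the niche signals was not tested. Ribosomal protein genes had medians of 0.31 in dividing and 0.46 in non-dividing cells, and -0.68 in dividing cells with the gates re-drawn on thinned cells.

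Many of the genes furthest apart between the genotypes in dividing cells rested on few UMIs in 1 of the libraries or are known from other cells. Some were as far apart in non-dividing cells, at larger counts. Highest in the knockout were Rimbp2, Gpc3, Bgn, Htra3, Prlr, Il1rapl2, Robo2, E2f7, Itm2a and Icam1, at log2 ratios of 3.16 to 3.78, with 2 to 13 UMIs each in the control. Of these, Gpc3, Bgn, Htra3, Prlr, Il1rapl2 and Itm2a turned below 0 in 1 or 2 alternatives. In non-dividing cells Rimbp2 was at 4.02, from 1006 knockout and 43 control UMIs, and the rest of these highest genes at 0.37 to 1.84. E2f7, a repressor that E2F factors induce in S phase, was at 26.8 CPM in dividing and 1.30 CPM in non-dividing knockout cells, and at 2.55 CPM, from 4 UMIs, and 0.998 CPM in the control. The 7 stromal markers summed to 933 CPM in dividing knockout and 216 CPM in dividing control cells, and to 1113 and 662 CPM in non-dividing ones, while free RNA held 4136 and 1812 CPM. At least 3 stromal UMIs were found in 23.3% of dividing knockout and 16.1% of dividing control cells. Leydig markers summed to 222 and 116 CPM in dividing cells, peritubular myoid markers to 199 and 72.6 CPM and endothelial markers to 41.2 and 22.3 CPM. Pericyte markers were at 5.55 CPM in dividing knockout cells and, with 3 of 4 genes at 0, at 0.637 CPM in dividing control cells. Their part in the ratios was not tested. Without the cells that carried 3 or more UMIs of other somatic types, 239 of 4173 knockout cells (5.73%) and 43 of 2699 control cells (1.59%) divided, a ratio of 3.59 (2.59 to 5.10).

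Lowest in the knockout were Rmst, Sycp2, Stk31, Rubcnl, Smc1b, Samd12, Tuba3a, Parvb, Tex15 and Sdk2, at -6.34 to -2.52. For Rmst, 65 of the 66 UMIs in dividing control cells were in 1 cell, and its ratio in non-dividing cells was 7.02. The rest of these lowest genes were lower in non-dividing cells too, at -4.57 to -1.66. Sdk2 stood at -2.61 there, from 521 knockout and 2237 control UMIs, and Rubcnl at -2.74, from 222 and 1043. Sycp2, a protein of the synaptonemal complex, and Smc1b, a meiotic cohesin, were at -5.83 and -3.33 in dividing and at -4.57 and -3.90 in non-dividing cells. The 8 measured germ cell markers had a median of -3.43 in dividing cells, and all 15 had a median of -3.32 in non-dividing cells. The part of germ cell RNA in these ratios was not tested.

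Doublets were called more often among dividing than among non-dividing cells, with the control's threshold used for both libraries. Scrublet, at the threshold it set for the control library, marked 42 of 563 dividing knockout cells (7.46%) and 9 of 93 dividing control cells (9.68%), against 2.79% and 2.89% of the non-dividing cells. Without them the ratio of the shares was 3.41 (2.70 to 4.35).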

How the data were processed

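Whole testis was profiled with 10x 3' V3 libraries, 1 per genotype. The file headers name Cell Ranger 7.1.0 as the counting software, and the submitters' processing notes name mm10 as the genome. The deposited values are whole-number UMI counts per gene and barcode, and 32235 of 32285 gene IDs were found in GENCODE M21.

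UMIs were summed per library and gate and given as CPM. Log2 ratios had 0.5 added to each count. A gene counted as measured with 30 UMIs over both groups compared. Intervals are exact at 95% (Poisson for levels, Clopper-Pearson for shares, conditional for ratios). The gates, members and lists were chosen with earlier results of these data known. The genes named are the gate genes and Psma7, 13 regulators of Sertoli cell number, the 2 highest and 2 lowest members of lists, and the 10 highest and 10 lowest genes of each ranking (at least 20 CPM in the higher group); 2 genes that this rule names are not reported here. List extremes were given only for lists with a member past 2-fold in both libraries and for the proteasome; some members of other lists were named after their values were seen. Promoters came from RefSeq (GRCm38.p6). Scrublet, run in scanpy 1.11.5, set a threshold in the knockout library that marked 0 cells, and the threshold found for the control was applied to each. Python 3.11.15, numpy 2.4.6, scipy 1.17.1 and matplotlib 3.10.9 were used. The ratio calculation was tested on simulated data. Alternatives varied the cell filters, gates, depth (cells thinned to 3000 UMIs before all gates or, chosen after seeing the data, before the division gate alone or after all gates), doublets, free RNA (5% subtracted), gene minimum, added count and scaling.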

Additional observations from a re-analysis of the deposited data

How the results depend on the processing

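No paired analysis was possible because each genotype had 1 library. Of the values that answer a comparison, 224 under an alternative stayed close to the reported ones and 62 moved; among the other values 3869 stayed close, 1008 moved and 33 that were at least 2-fold changed sign. Of values under 2-fold, 344 and, among those that answer a comparison, 20 also passed 0. The causes were not tested.

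The share of dividing cells in the knockout library, 7.87% as reported, was 10.4% at no more than 10% mitochondrial UMIs, 7.23% with the Sertoli gate at 20 per 10000, 10.4% with the division gate at 2 UMIs, 6.00% at 5 UMIs, 11.6% at 3 per 10000, 7.01% with all gates re-drawn on cells thinned to 3000 UMIs, 5.73% without cells carrying other types' markers, 9.01% against cells with 0 division UMIs, 6.01% with Top2a left out of the gate, 7.09% without Ube2c and 6.89% without Cenpf. In the control, 2.37% as reported, it was 3.33% with the Sertoli gate at 5 per 10000, 1.23% with 0 UMIs of Ddx4 and Dazl, 6.39% at 2 UMIs, 0.738% at 5 UMIs, 5.96% at 3 per 10000, 1.91% with gates re-drawn on thinned cells, 1.59% without other types' markers, 2.97% against 0 division UMIs, 1.09% without Top2a, 1.88% without Ube2c and 1.53% without Cenpf. With 3 alternatives chosen after seeing the data, the Cdk1, Birc5, Tpx2 and Nusap1 gate, 5 UMIs with 0 germ UMIs, and the division gate alone on thinned cells, the shares were 8.64%, 5.85% and 6.996% in the knockout and 5.19%, 0.377% and 0.691% in the control. Another kept all gated cells and thinned their levels.

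The control's median for G2 and mitosis genes, dividing over non-dividing, was 1.16 at 2 UMIs, 2.41 with 0 germ UMIs, 2.50 at 3 per 10000, 2.89 without Top2a, 2.91 without other types' markers, 3.31 with the Sertoli gate at 5, 3.33 at 5 UMIs, 3.67 with gates re-drawn on thinned cells, 3.74 with the division gate alone on them and 3.70 at 5 UMIs with 0 germ UMIs. For replication genes it was 1.51 at 5 UMIs and without other types' markers, 1.59 at 5 UMIs with 0 germ UMIs, 2.44 with gates re-drawn and 2.11 with the division gate alone on thinned cells, and for Sertoli products -0.86 with gates re-drawn. Between genotypes in dividing cells, the G2 and mitosis median was 0.68 with the Sertoli gate at 5, 0.61 at 5 UMIs, 0.55 with gates re-drawn and 0.498 with the division gate alone on thinned cells, 1.22 without other types' markers, 1.20 without Top2a and 0.57 at 5 UMIs with 0 germ UMIs. For replication it was 0.10 at 5 UMIs, -0.61 with gates re-drawn and -0.38 with the division gate alone on thinned cells, 0.16 without other types' markers and 0.072 at 5 UMIs with 0 germ UMIs, and for Sertoli products 0.74 with gates re-drawn. Psma7 was at -1.43 at 2 UMIs, -1.20 at 3 per 10000, -1.29 with gates re-drawn on thinned cells, -1.46 without other types' markers and -1.19 at 5 UMIs with 0 germ UMIs.

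Signs changed for Egr2 in the knockout (-0.12 without other types' markers) and control (-1.37 at 3 per 10000, -0.57 with gates re-drawn and -0.35 with the division gate alone on thinned cells, -0.21 without other types' markers, -0.0025 without Cenpf, -0.50 at 5 UMIs with 0 germ UMIs). Pf4 was at -1.06 with the Sertoli gate at 20 and -1.33 with gates re-drawn and -0.72 with the division gate alone on thinned cells in the knockout, and in the control at -2.27 at 5 UMIs, -0.27 at 3 per 10000, -0.95 with gates re-drawn, -3.82 without doublets, -3.68 without Cenpf and -1.51 at 5 UMIs with 0 germ UMIs. In the control, Slc18a1 was at 0.43 at 3 per 10000 and 0.62 at 5 UMIs with 0 germ UMIs, and Thnsl2 at 0.50 at 3 per 10000. Between genotypes, gates re-drawn on thinned cells put Bgn at -0.97, Gpc3 at -2.002, Htra3 at -1.40, Itm2a at -0.52, Mcm10 at -0.67 and Tk1 at -0.44, and the division gate alone on them put Itm2a at -0.080, Mcm10 at -0.85 and Tk1 at -0.53. The Sertoli gate at 5 put Cst8 at -1.46, Gpc3 at -0.020, Il1rapl2 at -0.15 and Prlr at -0.69, and 5 UMIs with 0 germ UMIs put Mcm10 at -0.31. The number of cells limits the control, where 93 dividing cells, 64 of them with 3 or 4 division UMIs, carry each value.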
